A study of Mus musculus with 3 samples.

Results

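The genes described here are those of the mitochondrial respiratory chain and ATP synthase, chosen by symbol: the Nduf, Sdh, Uqcr, Cox4 to Cox8 and Atp5 families of the nuclear genome, without Cox6a2, and the mt-Nd, mt-Co, mt-Cytb and mt-Atp genes of the mitochondrial genome. They were 108 gene IDs of 32932 in the series, 107 of them listed in each library and 106 in all 3. Of the 108, 13 were mitochondrial-encoded and 95 nuclear, and the nuclear ones held 78 IDs (77 symbols) of subunits, 8 complex I assembly factors (Ndufaf genes), 7 isoforms known from other tissues, the supercomplex factor Cox7a2l and Atp5s, which is not a subunit.

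The study asked how invariant natural killer T (iNKT) cells reconstitute in the thymus after haploidentical bone marrow transplantation (BMT) with and without graft-versus-host disease (GvHD). After removal of CD8+ cells, thymic cells positive for TCRβ and the CD1d-tetramer and negative for CD24 and NK1.1 were sorted and sequenced by droplet single-cell RNA-seq, in which a UMI (unique molecular identifier) marks 1 captured transcript. The C57BL/6 library came from pooled wild-type mice, 7 weeks old and without BMT. The BM only and BM + Spl libraries came from F1 (C57BL/6 x BALB/c) recipients that had been lethally irradiated, 16 weeks old and 9 weeks after BMT, that had all received T cell-depleted C57BL/6 marrow, and the BM + Spl recipients had also received C57BL/6 splenic cells and had GvHD. The sort named no marker of donor or host, so cells of donor and host were counted together.

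The mitochondrial inner membrane carries a chain of respiratory complexes, which pass electrons from NADH (complex I) or succinate (complex II) through complex III to oxygen at complex IV, and an ATP synthase (complex V) that uses the resulting proton gradient. Most subunits are encoded in the nucleus, translated in the cytosol and imported, while the hydrophobic cores of complexes I, III, IV and V are encoded by the mitochondrial genome, which is transcribed as long precursors that are then cut into gene-sized RNAs. Complex II is the exception, with nuclear subunits alone. Thymic iNKT cells mature into effector subsets named after the cytokines of helper T cells: NKT1, NKT2 and NKT17.

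Each condition had 1 library, so no test across replicates was possible and none was run. Cells were kept between the limits of 200 and 6000 genes if mitochondrial genes held less than 10% of their UMIs, and 4434, 5970 and 5557 cells remained in C57BL/6, BM only and BM + Spl, with a median of 12086.5, 4740 and 6495 UMIs. The median share of mitochondrial UMIs was 6.48%, 0.687% and 0.511%, and 161 cells of C57BL/6 exceeded the limit. The BMT libraries shared 43 cell barcodes (0.718% and 0.772% of their cells) and neither shared any with C57BL/6. The matrix headers named Cell Ranger 3.0.2 for C57BL/6 and 7.0.0 for both BMT libraries, and the labels name both a 3′ and a 5′ kit without saying which library used which. Levels in C57BL/6 are therefore set beside those of the BMT libraries as values only, and comparisons were made between subsets of 1 library or between BM + Spl and BM only.

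Subsets were gated on marker UMIs that hold no respiratory chain gene. The NKT1 gate (Nkg7, Xcl1, Gzmb, Tbx21 and other NKT1 markers) held 1203, 2713 and 829 cells, the NKT2 gate (Zbtb16, Il4, Il17rb and others) 1372, 677 and 1123, and the gate of cycling Zbtb16+ cells (Mki67, Top2a and others) 940, 237 and 417. Zbtb16, which encodes the iNKT transcription factor PLZF, was at 442, 422 and 383 counts per 1e6 UMIs (CPM) in the NKT2 gate, and at 85.2, 47.6 and 29.9 CPM in the NKT1 gate. The NKT2 gate required at least 1 Zbtb16 UMI and the NKT1 gate did not, so this difference is set at least in part by the gates. Among cells with a T cell receptor Vβ UMI, the share with only Vβ segments typical of iNKT cells was 87.0%, 75.8% and 73.0% in the NKT2 gate. In the NKT1 gate it was 90% (of 120 cells with such a UMI), 80.2% (of 2590) and 29.7% (of 799), and in the CD8 and regulatory T gates of BM + Spl, which iNKT cells should not fill, it was 32.0% and 21.1%. In the NKT17 gate the share was 87.5% (of 48 cells with such a UMI), 55.2% (of 473) and 30.3% (of 416). The iNKT labels of the NKT1 and NKT17 gates in BM + Spl therefore go against their receptor segments. The main results on the NKT1 gate are also given for the cells with iNKT segments alone, and those on the NKT17 gate are not. In the NKT1 gate of BM + Spl the share was no higher than in the CD8 gate. The restriction therefore cannot be taken to select iNKT cells there, and its values for that gate do not show what iNKT cells do. The sort also left 635 and 698 cells with Foxp3 UMIs and 305 and 507 B and myeloid cells in BM only and BM + Spl, which were gated out.

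A member was measured in a comparison where it had at least 500 UMIs over the filtered cells of the libraries compared, which 97, 98 and 98 of the 107 listed members had in C57BL/6, BM only and BM + Spl. Every tissue isoform fell below that: Cox4i2, Cox6b2, Cox7a1, Cox7b2, Cox8b, Cox8c and Ndufa4l2, known from lung, testis, muscle or hypoxic cells, reached at most 1.61, 1.63 and 1.39 CPM, and 4, 4 and 3 of the 7 had no UMI. Their common partners were well detected, with Cox4i1, a scaffold subunit of complex IV, at 644 to 855 CPM across the NKT1, NKT2 and cycling gates of the 3 libraries.

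The 13 mitochondrial-encoded genes were read very differently in C57BL/6 and in the BMT libraries. Their summed level in the NKT2 gate was 67042 CPM in C57BL/6, 8461 CPM in BM only and 6165 CPM in BM + Spl. The balance inside a transcript differed as well, which shows at the overlapping gene pairs mt-Atp8 with mt-Atp6 and mt-Nd4l with mt-Nd4, subunits of complex V and complex I that each share 1 RNA. The stretches around both overlaps are printed from the GENCODE vM21 transcripts (GRCm38, plus strand, chrM:7867-8029 and chrM:10107-10233), with the bases that belong to both genes in capitals.
mt-Atp8 into mt-Atp6: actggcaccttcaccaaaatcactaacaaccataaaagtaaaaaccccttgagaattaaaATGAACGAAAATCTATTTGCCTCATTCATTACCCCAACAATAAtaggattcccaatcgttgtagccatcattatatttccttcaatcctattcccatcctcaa
mt-Nd4l into mt-Nd4: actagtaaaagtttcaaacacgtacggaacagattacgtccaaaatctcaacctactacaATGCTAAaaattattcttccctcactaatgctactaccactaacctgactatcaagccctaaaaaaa

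The overlap spans 43 bases (chrM:7927-7969) in the first pair and 7 bases (chrM:10167-10173) in the second, and the start codon of the downstream gene opens the capitals in both. In C57BL/6 the downstream gene held nearly all UMIs of the pair, with 0.00841 mt-Atp8 UMIs for each mt-Atp6 UMI and 0.0693 mt-Nd4l UMIs for each mt-Nd4 UMI. In the BMT libraries the upstream gene led, with 4.08 (BM only) and 3.47 (BM + Spl) mt-Atp8 UMIs for each mt-Atp6 UMI. For mt-Nd4l over mt-Nd4 the values were 4.16 and 4.88. The order of the pair was thus turned around between C57BL/6 and both BMT libraries, and condition, kit and software cannot be told apart here. Where along the shared RNA reads were assigned was not tested, and levels of mitochondrial-encoded genes are compared below only for the same gene.

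Within a library, nuclear-encoded subunits were lowest in the NKT1 gate and highest in cycling cells. Summed over the nuclear subunits, C57BL/6 held 15780 CPM in NKT1, 18257 in intermediate cells (markers of both NKT1 and NKT2), 19559 in NKT17, 19571 in NKT2 and 26354 in cycling cells. In BM only the same 5 subsets held 20331, 24169, 24355, 25346 and 31386 CPM, and in BM + Spl 23479, 25703, 25121, 25686 and 30885 CPM. NKT17, intermediate and NKT2 cells lay close to each other, and in BM + Spl intermediate and NKT2 cells were near level. The NKT17 level of BM + Spl comes from a gate where only 30.3% of cells with a Vβ UMI had iNKT segments only. All 5 complexes had this order at its ends, NKT1 lowest and cycling highest, in each of the 3 libraries. The remaining gates of the BMT libraries (regulatory T, CD8, B and myeloid, and other cells) lay in between, from 23144 to 25402 CPM in BM only and from 24211 to 27245 CPM in BM + Spl.

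**Figure D1:**
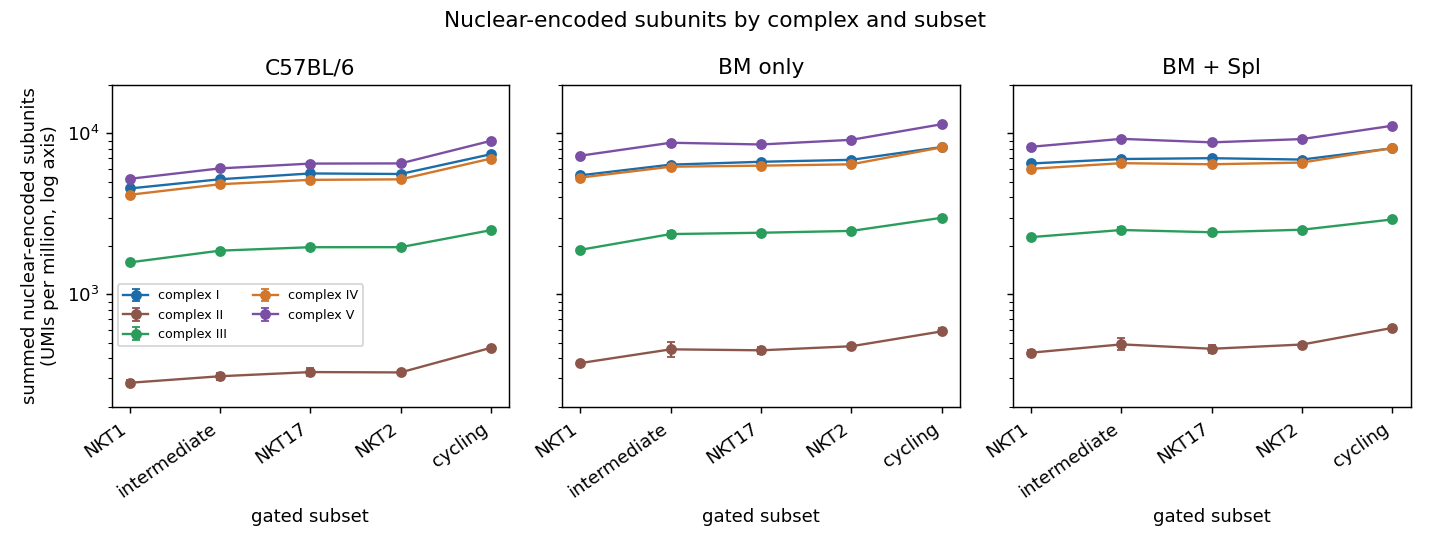
Summed level of the nuclear-encoded subunits of complexes I to V (CPM, log axis) in 5 gated subsets of each library, with 95% counting intervals and lines that only join the points of a complex. Each line starts lowest at NKT1 and ends highest at cycling cells, and complex V lies on top, at 8988 CPM in cycling cells of C57BL/6, 11398 CPM in BM only and 11158 CPM in BM + Spl.

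By complex, the NKT2 gate of C57BL/6 held 5593 CPM of complex I, 327 CPM of complex II, 1963 CPM of complex III, 5180 CPM of complex IV and 6508 CPM of complex V. In BM only these were 6850, 476, 2477, 6423 and 9121 CPM, and in BM + Spl 6874, 488, 2520, 6585 and 9219 CPM. A sum grows with the number of genes, which is 37, 4, 8, 11 and 17 symbols with UMIs for complexes I to V in the BMT libraries and 36 for complex I in C57BL/6, where Ndufb1-ps is not listed. The symbol rule leaves out Cyc1, the cytochrome c1 subunit of complex III, so the complex III sums lack it. It was at 97.1 CPM in the NKT2 gate of C57BL/6. UMIs were counted at 1 end of a transcript and carry no length term. How well each gene is captured was not measured, so CPM of different genes need not order them by abundance. As UMI yield alone, the subunits counted most in C57BL/6 were Ndufa13 for complex I (451 CPM over all filtered cells), the iron-sulfur subunit Sdhb for complex II (146 CPM), the hinge protein Uqcrh for complex III (617 CPM), Cox8a for complex IV (835 CPM) and the F1 epsilon subunit Atp5e for complex V (836 CPM).

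The first comparison asked how the chain differs between the effector subsets NKT2 and NKT1. Nuclear subunits as a group were modestly higher in NKT2 cells, with a summed log2 ratio of 0.31 in C57BL/6, 0.32 in BM only and 0.13 in BM + Spl. The median over the measured nuclear subunits was 0.37, 0.37 and 0.17 on the log2 scale, against -0.04, 0.01 and -0.05 over all genes measured. A gene was called where the ratio was at least 1.5-fold and its 95% interval, which covers counting error alone, left out 1. By that rule 6 of 76 nuclear subunits were higher in C57BL/6, 11 of 77 in BM only and 0 of 77 in BM + Spl, beside 8.8%, 10.9% and 9.27% of all genes. None was lower in any library, beside 11.7%, 15.8% and 17.5% of all genes. The shares called higher were near those of all genes in C57BL/6 and BM only and below it in BM + Spl, so the shift was broad and small rather than carried by genes of large change.

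Of the 76 nuclear subunits measured in all 3 libraries, 43 had an interval above 0 in each of the 3, beside 16.8% of all genes. The 43 came from every complex. By complex the summed log2 ratio in C57BL/6 was 0.30, 0.21, 0.31, 0.32 and 0.32 for complexes I to V, in BM only 0.32, 0.35, 0.39, 0.27 and 0.33, and in BM + Spl 0.08, 0.17, 0.15, 0.13 and 0.16. Every complex had a positive ratio in each library and its smallest in BM + Spl. Against ribosomal protein genes, which also made up more of the UMIs in NKT2 cells (32.8%, 28.3% and 28.6%, against 30.1%, 23.7% and 23.0% in NKT1), the summed nuclear log2 ratio was 0.19 in C57BL/6, 0.06 in BM only and -0.18 in BM + Spl. NKT2 cells also held more UMIs per cell than NKT1 cells, a median of 13389 against 6501, 8464 against 4320 and 9259 against 4504. In cells with 5000 to 10000 UMIs in both gates the summed log2 ratio was smaller, 0.12 in C57BL/6 and 0.19 in BM only, and level in BM + Spl (-1.98e-06). In cells with iNKT segments only it was 0.20 (267 NKT2 and 108 NKT1 cells), 0.32 and 0.11. The last rests on NKT1 gate cells of BM + Spl that the restriction cannot show to be iNKT cells.

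Uqcrq, a small subunit of complex III that the study names among metabolic genes, had the largest ratio in BM only. In C57BL/6 it was at 201 CPM in NKT1, 330 CPM in NKT2 and 529 CPM in cycling cells, in BM only at 292, 534 and 765 CPM, and in BM + Spl at 357, 507 and 715 CPM. The order NKT1, NKT2, cycling held in each library, with NKT2 over NKT1 at 1.64-fold (95% interval 1.56 to 1.73), 1.83-fold (1.74 to 1.92) and 1.42-fold (1.34 to 1.5), the last not called. The gene lies at chr11:53427922-53430831 (GRCm38, minus strand).

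Ndufc2, an accessory subunit of the complex I membrane arm (chr7:97400003-97407802, GRCm38, plus strand), was at 97.4, 162 and 244 CPM in NKT1, NKT2 and cycling cells of C57BL/6, at 112, 195 and 269 CPM in BM only, and at 168, 200 and 282 CPM in BM + Spl. It was called higher in NKT2 in C57BL/6 (1.67-fold, 1.54 to 1.8) and BM only (1.73-fold, 1.6 to 1.88), while in BM + Spl the ratio was 1.19-fold (1.1 to 1.3). Between the BMT libraries the NKT2 levels were close (195 and 200 CPM) and the NKT1 level was higher in BM + Spl (112 CPM in BM only, 168 CPM in BM + Spl). Atp5md, a small membrane subunit of ATP synthase, had ratios of 1.67-fold, 1.59-fold and 1.24-fold, the last not called.

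The other nuclear subunits called in C57BL/6 were Ndufc1, Ndufb6 and Atp5g1, and in BM only Ndufb5, Ndufc1, Ndufs4, Ndufv2, Ndufv3, Sdhb, Cox7a2 and Atp5k. At the other end, 3 nuclear subunits had an interval below 0 in each library, none of them called. Atp5l, a membrane subunit of ATP synthase, had log2 ratios of -0.07, -0.19 and -0.28. Those of Atp5h were -0.07, -0.15 and -0.24, and those of Ndufa2 -0.11, -0.12 and -0.29. In BM + Spl the nuclear members called higher were both assembly factors of complex I, Ndufaf6 (log2 ratio 0.72, at 19.8 CPM in NKT2 and 12.0 CPM in NKT1) and Ndufaf4 (0.67, at 78.7 and 49.6 CPM). In cells with iNKT segments only these were 0.84 and 0.41, the last below the limit. Across the 76 genes measured in both, the log2 ratios of C57BL/6 and BM only had a Pearson correlation of 0.889, and those of C57BL/6 and BM + Spl of 0.688, a description over genes that share cells and depth within each library.

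**Figure D2:**
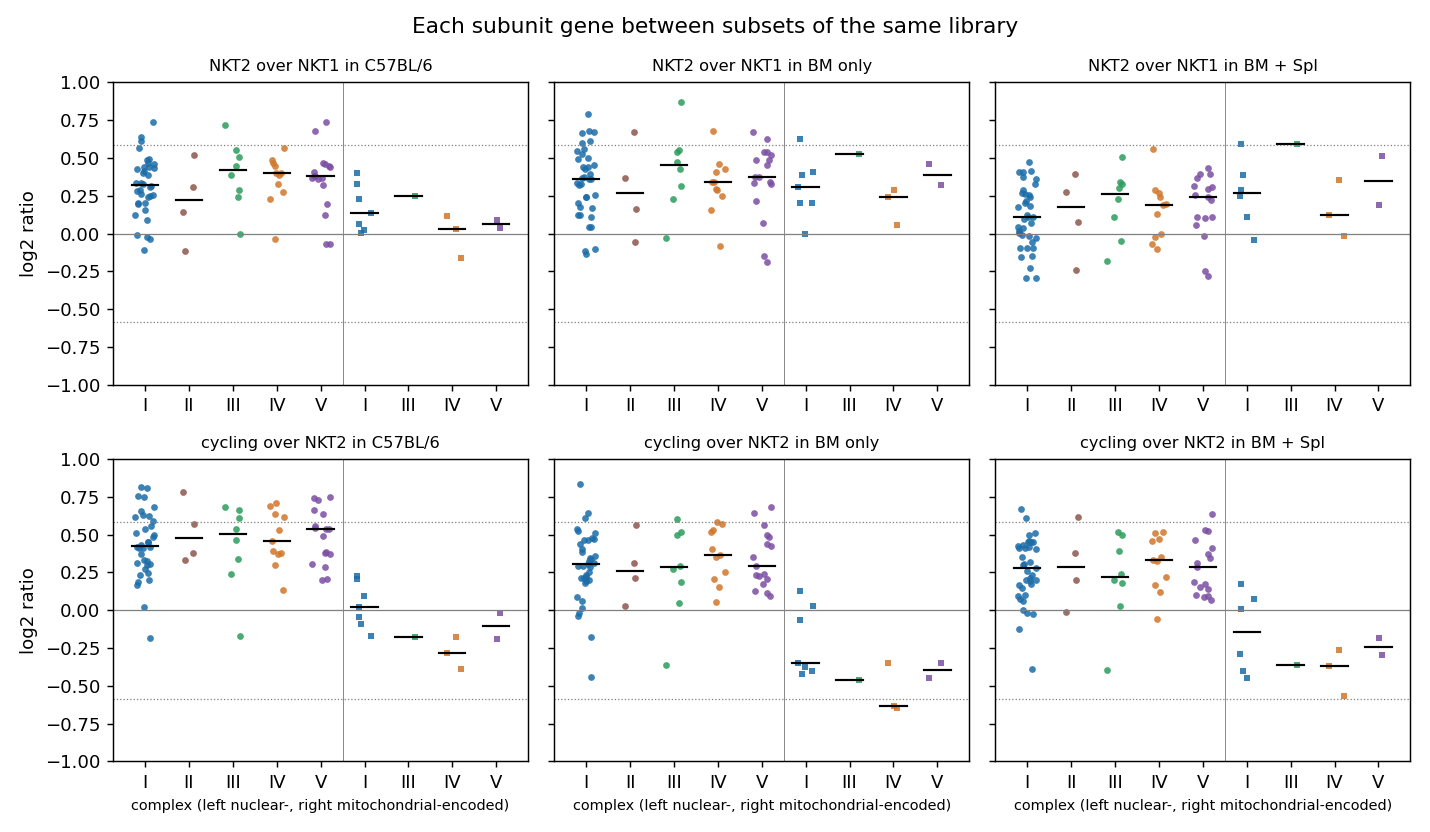
Each measured subunit gene as 1 point, by complex and genome, with the log2 ratio of NKT2 over NKT1 and of cycling over NKT2 cells in each library; bars are medians and dotted lines mark 1.5-fold. Nuclear points sit mostly above 0 in both comparisons (medians of 0.37, 0.37 and 0.17 for NKT2 over NKT1), while mitochondrial-encoded points fall mostly below 0 in cycling cells.

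As a share of all UMIs, mitochondrial-encoded genes were also higher in NKT2 than NKT1 cells. Their summed log2 ratio was 0.08 in C57BL/6, 0.30 in BM only and 0.30 in BM + Spl. In BM only both genomes had like ratios (0.32 nuclear), while in BM + Spl the mitochondrial-encoded sum had the larger ratio (0.13 nuclear). Ribosomal protein genes had log2 ratios of 0.12, 0.25 and 0.31. Against them the mitochondrial-encoded sum was lower in NKT2 cells of C57BL/6, slightly higher in BM only and near level in BM + Spl. In cells with iNKT segments only its log2 ratio was 0.04 in C57BL/6 and 0.25 in BM + Spl. The NKT1 gate cells of BM + Spl cannot be taken as iNKT cells. Called genes were mt-Nd1, a core subunit of complex I, in both BMT libraries (1.54-fold, 1.45 to 1.64, and 1.51-fold, 1.39 to 1.64) and mt-Cytb, the catalytic cytochrome b of complex III, in BM + Spl (1.51-fold, 1.44 to 1.58). The level of mt-Cytb in NKT1 and NKT2 cells was 5731 and 6802 CPM in C57BL/6, 720 and 1038 CPM in BM only, and 506 and 764 CPM in BM + Spl. The level of mt-Co1, the catalytic subunit of complex IV, was 8448 and 7539 CPM, 1659 and 1727 CPM, and 1333 and 1316 CPM. Its log2 ratios were -0.16, with an interval below 0, 0.06, with an interval above 0, and -0.02, with an interval that held 0. Genes of the same genome, cut from shared precursors, did not move as a unit.

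The second comparison set cycling Zbtb16+ cells against NKT2 cells. As shares of all UMIs the genomes went apart here. The nuclear sum was higher in cycling cells, with log2 ratios of 0.43, 0.31 and 0.27. The mitochondrial-encoded sum was lower, with -0.19, -0.44 and -0.34. Of the nuclear subunits, 23 of 76 were called higher in C57BL/6, 6 of 77 in BM only and 4 of 77 in BM + Spl, beside 11.9%, 11.8% and 12.1% of all genes. None was called lower, beside 6.05%, 8.16% and 6.53% of all genes. The median log2 ratio was 0.46, 0.30 and 0.29, against 0.04, 0.00 and 0.01 over all genes measured. In C57BL/6 the share called was above that of all genes, and in the BMT libraries below it. The counts of the BMT libraries moved in both directions under other settings, which are given at the end.

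Of the 76 nuclear subunits measured in all libraries, 63 had an interval above 0 in each of the 3, beside 22.4% of all genes, and 2 had it below 0 in each of the 3, beside 14.6%. By complex the summed nuclear log2 ratio was 0.41, 0.51, 0.35, 0.43 and 0.47 for complexes I to V in C57BL/6, 0.26, 0.31, 0.27, 0.35 and 0.32 in BM only, and 0.23, 0.34, 0.21, 0.30 and 0.28 in BM + Spl. Every complex had a positive ratio and complex III the least or nearly least in each library. Ribosomal protein genes took a smaller share of UMIs in cycling cells (27.7%, 22.9% and 23.0%), and against them the summed nuclear log2 ratio was 0.67, 0.61 and 0.58. The log2 ratios of ribosomal protein genes were -0.24, -0.30 and -0.31, and those of the mitochondrial-encoded sum -0.19, -0.44 and -0.34. Against ribosomal protein genes, the mitochondrial-encoded sum was thus slightly higher in cycling cells of C57BL/6 and lower in both BMT libraries. Its direction in C57BL/6 depends on the denominator. Cycling cells had a median of 21044, 14906 and 15752 UMIs, more than NKT2 cells. In cells with 5000 to 10000 UMIs the nuclear ratio was 0.38, 0.21 and 0.35, and the mitochondrial-encoded one was nearer 0 than over all cells, at -0.096, -0.12 and -0.19. That window held only 28 of 940, 35 of 237 and 36 of 417 cycling cells, so it covers a small part of the gate.

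Called higher in cycling cells of all 3 libraries were Atp5g3, Ndufa5 and Ndufab1. Atp5g3, which encodes the membrane c subunit that forms the rotor ring of ATP synthase (chr2:73908447-73911326, GRCm38, minus strand), was at 260 CPM in NKT2 and 435 CPM in cycling cells of C57BL/6, at 917 and 1470 CPM in BM only, and at 942 and 1461 CPM in BM + Spl. Its ratio was 1.67-fold (1.62 to 1.73), 1.6-fold (1.54 to 1.67) and 1.55-fold (1.51 to 1.6). Ndufab1, the mitochondrial acyl carrier protein that is also part of complex I, was at 123 and 208 CPM, 176 and 267 CPM, and 188 and 287 CPM. Ndufa5, an accessory subunit of the matrix arm, was at 93.2 and 158 CPM, 116 and 207 CPM, and 125 and 199 CPM, with ratios of 1.69-fold (1.6 to 1.79), 1.78-fold (1.6 to 1.98) and 1.59-fold (1.47 to 1.71). Unlike Uqcrq, Ndufa5 differed little between NKT1 and NKT2 cells, with log2 ratios of 0.20, 0.12 and -0.16.

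The c subunit is made from 3 genes whose mature proteins are the same, Atp5g1, Atp5g2 and Atp5g3, and their shares shifted in cycling cells. Atp5g3 went from 23.8% to 28.9% of c subunit UMIs in C57BL/6, from 43.3% to 50.9% in BM only and from 44.1% to 52.0% in BM + Spl. Atp5g2 went from 45.2% to 38.0%, from 40.6% to 32.5% and from 39.4% to 32.0%. Atp5g1 was at 31.0% and 33.1%, 16.1% and 16.5%, and 16.5% and 15.9%. The exchange between Atp5g3 and Atp5g2 had the same direction in each library, though the starting shares of C57BL/6 and the BMT libraries differed.

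Among the assembly factors, Ndufaf2, a chaperone of late complex I assembly, was called in all 3 libraries at low levels, from 18.7 to 37.9 CPM, 14.4 to 34.0 CPM and 17.1 to 31.4 CPM. Its ratio was 2.02-fold (1.78 to 2.3), 2.36-fold (1.77 to 3.15) and 1.84-fold (1.5 to 2.25). Beyond these, Ndufb6 and Ndufa12 had the largest subunit ratios in C57BL/6 (1.76-fold and 1.75-fold), and Ndufa12 (1.56-fold), Uqcr10 and Atp5o were called in BM only and Sdhd in BM + Spl.

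The 2 nuclear subunits with intervals below 0 in each library were Ndufa6 and Uqcrh. Ndufa6, an accessory subunit of complex I (chr15:82350140-82354322, GRCm38, minus strand), was at 188 CPM in NKT2 and 165 CPM in cycling cells of C57BL/6, at 376 and 277 CPM in BM only, and at 388 and 296 CPM in BM + Spl. Uqcrh, the hinge protein of complex III (chr4:116066965-116075071, GRCm38, minus strand), was at 640 and 569 CPM, 556 and 432 CPM, and 577 and 438 CPM. Their log2 ratios were -0.18, -0.44 and -0.39 for Ndufa6 and -0.17, -0.36 and -0.40 for Uqcrh, none of them past 1.5-fold. Cox7a2l, a factor described for supercomplexes of complexes III and IV, was lower too, with log2 ratios of -0.56, -0.23 and -0.54. Its function in cells of this strain and the supercomplexes themselves were not tested. Several small subunit genes have processed pseudogenes, and how reads shared with them were assigned is not given in the sources used here, so their levels are less certain than their ratios within 1 library.

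The 250 bases before the RefSeq start were searched on both strands for the letters GCATGCGC (NRF1), CCGGAAG (GABPA) and AAGATGGC (YY1), motifs of factors known for respiratory genes. A promoter was found for 63 of the 77 nuclear subunit symbols. The NRF1 letters were in 12.7% of them, against 2.30% of all 27025 promoters, the GABPA letters in 19.0% against 7.14%, and the YY1 letters in 1.59% against 1.58%. Any of these was in 18 of 63 (28.6%), against 10.4% of all promoters. By complex the counts, small for complexes II and III, were 6 of 32 for complex I, 2 of 3 for complex II, 2 of 5 for complex III, 2 of 9 for complex IV and 6 of 14 for complex V. The promoters of 4 genes are shown. Atp5g3 (chr2:73911327-73911576) and Ndufab1 (chr7:122101849-122102098) were called higher in cycling cells of all 3 libraries, as was Ndufa5, which is not shown. Ndufa6 (chr15:82354292-82354541) and Uqcrh (chr4:116075071-116075320) had intervals below 0 in each. The 4 sequences are from RefSeq, GRCm38.p6, read 5′ to 3′ on the minus strand, with motif letters in capitals.
Atp5g3: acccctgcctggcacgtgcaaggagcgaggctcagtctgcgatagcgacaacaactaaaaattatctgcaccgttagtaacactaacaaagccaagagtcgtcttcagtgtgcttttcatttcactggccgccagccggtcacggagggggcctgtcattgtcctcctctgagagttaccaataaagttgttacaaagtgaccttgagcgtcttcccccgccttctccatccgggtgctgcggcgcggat
Ndufab1: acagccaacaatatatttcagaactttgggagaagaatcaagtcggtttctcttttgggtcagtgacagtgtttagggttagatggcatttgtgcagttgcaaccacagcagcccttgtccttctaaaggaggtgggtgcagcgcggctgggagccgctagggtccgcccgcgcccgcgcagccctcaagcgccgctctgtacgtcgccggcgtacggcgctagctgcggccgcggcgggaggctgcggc
Ndufa6: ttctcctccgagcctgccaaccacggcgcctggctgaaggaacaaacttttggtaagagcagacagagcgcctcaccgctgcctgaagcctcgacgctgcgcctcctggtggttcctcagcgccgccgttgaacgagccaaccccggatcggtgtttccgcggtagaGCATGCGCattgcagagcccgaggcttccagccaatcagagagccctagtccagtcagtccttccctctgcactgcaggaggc
Uqcrh: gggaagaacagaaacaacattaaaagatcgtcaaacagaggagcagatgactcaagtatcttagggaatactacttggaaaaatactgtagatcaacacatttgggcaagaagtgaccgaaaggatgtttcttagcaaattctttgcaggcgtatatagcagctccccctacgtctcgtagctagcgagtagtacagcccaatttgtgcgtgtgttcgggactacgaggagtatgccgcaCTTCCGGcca

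The Atp5g3 and Ndufab1 windows held none of the searched letters. The Ndufa6 window held the NRF1 letters 83 bases before the start, and the Uqcrh window the GABPA letters, read on the other strand as CTTCCGG, 10 bases before it. Other subunits higher in cycling cells were of both kinds. Ndufa5, Ndufa12, Uqcr10 and Atp5o held none of the letters, Ndufb6 and Sdhd held those of GABPA and Atp5k those of NRF1. Whether the letters go with the direction of change was not tested. A match is a run of letters and not a measured binding site.

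Among the mitochondrial-encoded genes, 7 of the 12 measured in all libraries had an interval below 0 in cycling cells of each library, beside 14.6% of all genes, and 1, mt-Nd1, above 0, beside 22.4%. The level of mt-Co1 in NKT2 and cycling cells was 7539 and 5753 CPM in C57BL/6, 1727 and 1104 CPM in BM only, and 1316 and 889 CPM in BM + Spl. Its log2 ratios of -0.39, -0.65 and -0.57 were the lowest of the measured mitochondrial-encoded genes in each library. With mt-Co3, another core subunit of complex IV, it was called lower in BM only (0.639-fold, 0.616 to 0.663, and 0.644-fold, 0.603 to 0.687). The level of mt-Nd1 was 3264 and 3773 CPM, 294 and 322 CPM, and 242 and 273 CPM, with log2 ratios of 0.21, 0.13 and 0.17. In sum the mitochondrial subunits of complex IV had log2 ratios of -0.27, -0.53 and -0.42, and those of complex I 0.01, -0.26 and -0.24.

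**Figure D3:**
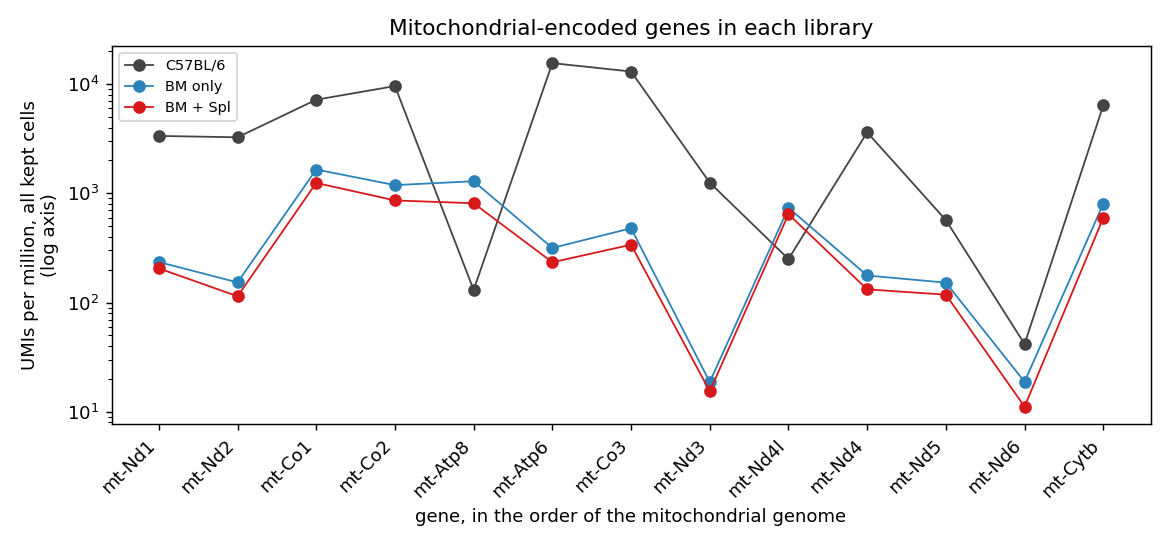
Level of each of the 13 mitochondrial-encoded genes over all kept cells of each library (CPM, log axis), in the order of the mitochondrial genome, with lines that only join the points of a library. The point of mt-Atp6 lies above that of mt-Atp8 in C57BL/6 and below it in both BMT libraries (0.00841, 4.08 and 3.47 mt-Atp8 UMIs for each mt-Atp6 UMI).

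Among the NKT1, NKT2, intermediate, NKT17 and cycling gates, the nuclear UMIs counted for each mitochondrial-encoded UMI were highest in cycling cells. This ratio was 0.250 in NKT1, 0.292 in NKT2 and 0.447 in cycling cells of C57BL/6, 2.96, 3.0 and 5.02 in BM only, and 4.68, 4.17 and 6.33 in BM + Spl. For complex IV alone it was 0.134, 0.165 and 0.269 in C57BL/6, 1.63, 1.76 and 3.23 in BM only, and 2.46, 2.46 and 4.06 in BM + Spl. NKT1 and NKT2 cells differed less from each other, and cycling cells stood above both in each library. Regulatory T cells, outside the iNKT gates, were over all complexes at 4.48 in BM only, below cycling cells, and at 6.41 in BM + Spl, slightly above them. For complex I regulatory T cells stood above cycling cells in both BMT libraries, and for complex IV below them in both. With cells thinned to 2700 UMIs, and those with fewer left out, the median cell was taken in NKT1, NKT2 and cycling cells. It held 41, 49 and 72 nuclear subunit UMIs in C57BL/6, 54, 66 and 84 in BM only, and 60, 66 and 81 in BM + Spl. The order of these 3 subsets thus held for the median of the cells kept. Left out were 419 NKT1, 45 NKT2 and 2 cycling cells of BM only, and 82, 24 and 2 of BM + Spl.

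**Figure D4:**
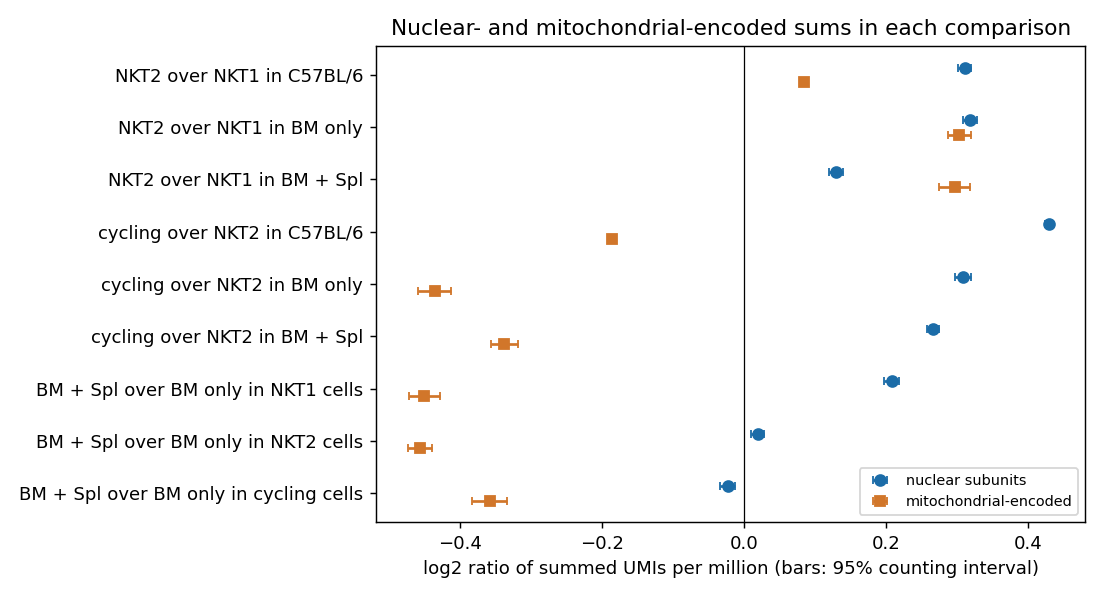
Log2 ratio of the summed nuclear subunits (circles) and of the summed mitochondrial-encoded genes (squares) in the 9 comparisons, with 95% counting intervals. Both sums lie above 0 for NKT2 over NKT1, and they lie on opposite sides of 0 for cycling over NKT2 cells (0.43 against -0.19 in C57BL/6).

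The third comparison, between the BMT libraries, bears on GvHD. By gene set enrichment, the paper reports higher oxidative phosphorylation with GvHD in clusters of NKT1 cells and their precursors. Those clusters were not rebuilt here, and the intermediate gate was not compared between the libraries. With 1 library each, library and condition cannot be told apart. No nuclear subunit was called in either direction in any of the 3 gates compared. In NKT1 cells 11.3% of all genes were called higher and 7.47% lower in BM + Spl, in NKT2 cells 0.592% and 2.11%, and in cycling cells 1.31% and 2.92%. The summed nuclear log2 ratio was 0.21 in NKT1, 0.02 in NKT2 and -0.02 in cycling cells, and the medians were 0.22, 0.04 and -0.04, against 0.05, -0.02 and -0.01 over all genes measured. NKT2 and cycling cells thus had nearly the same nuclear level with and without splenic cells.

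In the NKT1 gate, 60 of 77 nuclear subunits had an interval above 0, beside 27.6% of all genes, and 2 below 0, beside 18.2%. By complex the summed log2 ratio was 0.24, 0.21, 0.26, 0.18 and 0.18 for complexes I to V. Ndufc2 had the largest ratio, just under the limit (112 CPM in BM only, 168 CPM in BM + Spl, 95% interval of the fold 1.37 to 1.64). It was followed by Atp5j, coupling factor 6 of ATP synthase (268 and 393 CPM, 1.46-fold), and Cox7a2 of complex IV (272 and 387 CPM, 1.42-fold). The smallest ratios were those of the complex I core subunit Ndufs1 (36.2 and 30.8 CPM), Ndufa4 of complex IV (526 and 461 CPM) and Atp5mpl (318 and 298 CPM). This gate is the one whose receptor segments differed most between the libraries, 80.2% and 29.7% with iNKT segments only, and NKT1 markers summed to 5885 CPM in BM only and 2958 CPM in BM + Spl. Restricted to cells with iNKT segments only (2077 and 237), the summed nuclear log2 ratio was 0.23 and that of Ndufc2 0.40. The 237 cells of BM + Spl cannot be taken as iNKT cells, for the reason given with the gates. These NKT1 cells of BM + Spl are also the denominator of the smaller NKT2 over NKT1 ratio in that library, so both results share them.

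The mitochondrial-encoded sum was lower in BM + Spl in every gate, with log2 ratios of -0.45 in NKT1, -0.46 in NKT2 and -0.36 in cycling cells, and -0.40 in NKT1 cells with iNKT segments only. Intervals were below 0 for 12 of 13 genes in NKT1 cells, where 18.2% of all genes were, for 13 of 13 in NKT2 cells, beside 11.1%, and for 13 of 13 in cycling cells, beside 7.54%. Called lower were mt-Atp8 and mt-Nd6 in NKT1 cells, these and mt-Co3 in NKT2 cells, and mt-Nd6 in cycling cells. The level of mt-Atp8 was 1189 and 710 CPM in NKT1 cells of BM only and BM + Spl, 1633 and 1013 CPM in NKT2 cells and 1197 and 824 CPM in cycling cells. The light-strand gene mt-Nd6 (chrM:13552-14070, minus strand), a membrane subunit of complex I, was low in all, at 18.9 and 10.9 CPM, 21.7 and 13.9 CPM, and 16.4 and 10.2 CPM.

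Cells outside the iNKT gates showed the same lower mitochondrial-encoded sum. It was 5671 CPM in BM only and 4250 CPM in BM + Spl for regulatory T cells, 7797 and 5411 CPM for CD8 cells, and 6533 and 5302 CPM for B and myeloid cells. The lower level was thus found in every gate of the BM + Spl library, whatever the cell type.

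**Figure D5:**
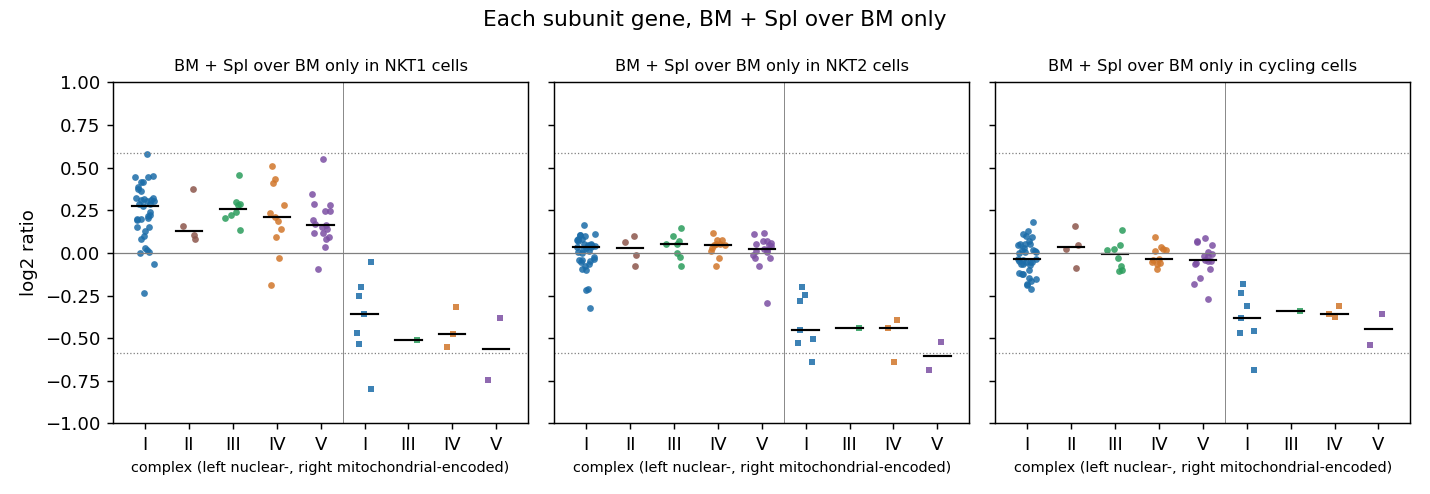
Each measured subunit gene as 1 point, by complex and genome, with the log2 ratio of BM + Spl over BM only in NKT1, NKT2 and cycling cells; bars are medians and dotted lines mark 1.5-fold. Nuclear points lie mostly above 0 in NKT1 cells (median 0.22) and around 0 in NKT2 and cycling cells (0.04 and -0.04), and mitochondrial-encoded points lie below 0 in all 3 gates.

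Other genes of the pathway were taken from lists outside the symbol rule. Of the mitochondrial ribosomal proteins, which translate the mitochondrial-encoded subunits, 8 of 77, 13 of 77 and 3 of 78 were called higher in NKT2 than NKT1 cells in C57BL/6, BM only and BM + Spl, and 16 of 77, 11 of 77 and 10 of 78 in cycling cells over NKT2, with none lower. Of all genes 8.8%, 10.9% and 9.27% were higher in NKT2 and 11.9%, 11.8% and 12.1% in cycling cells, so the share of mitochondrial ribosomal proteins called in NKT2 cells was near that of all genes in C57BL/6, above it in BM only and below it in BM + Spl, and in cycling cells it was above in C57BL/6 and near in the BMT libraries. Called lower were 11.7%, 15.8% and 17.5% of all genes in NKT2 over NKT1 cells. In cycling over NKT2 cells they were 6.05%, 8.16% and 6.53%. The counts of the smaller lists are given as a description. Of 7 adenine nucleotide and phosphate carriers 3, 3 and 1 were higher in NKT2 cells, among them Slc25a5, an ADP/ATP exchanger, in all 3 libraries (log2 ratios of 0.68, 0.80 and 0.87). In cycling cells 2, 1 and 2 of the 7 were higher. Of 14 enzymes of the TCA cycle, which feeds complexes I and II, 1, 3 and 3 were higher in NKT2 cells, with 1 lower in C57BL/6, and 2, 2 and 1 were higher in cycling cells. The list of assembly factors and electron carriers outside the rule also holds Cyc1, a subunit of complex III. Of its genes 1 of 29, 3 of 25 and 4 of 28 were higher in NKT2 cells, with 2 of 28 lower in BM + Spl. In cycling cells 3, 2 and 1 were higher, with 1 lower in BM only.

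The single genes that follow were picked after their values were seen. Cycs, the cytochrome c that carries electrons to complex IV, was at 170 CPM in NKT2 and 328 CPM in cycling cells of C57BL/6, at 285 and 522 CPM in BM only, and at 349 and 549 CPM in BM + Spl, called higher in each. Tfam, which packages mitochondrial DNA and activates its transcription, was also called in each, from 53.2 to 81.6 CPM, from 32.9 to 61.8 CPM and from 36.4 to 62.9 CPM. Atpif1, the inhibitor of ATP synthase hydrolysis, was at 45.9 CPM in NKT1 and 96.8 CPM in NKT2 cells of C57BL/6 and at 49.9 and 95.8 CPM in BM only, but at 124 and 88.8 CPM in BM + Spl. Between the BMT libraries it was called higher in NKT1 cells of BM + Spl, with a log2 ratio of 1.32 (95% interval 1.15 to 1.49). Of 11 regulators of respiratory genes 4 were called lower in those cells, beside 7.47% of all genes, among them the coactivator Ppargc1b, at 15.4 CPM in BM only and 5.66 CPM in BM + Spl. In cells with iNKT segments only the log2 ratio of Atpif1 was 0.92 and its level 83.5 CPM in NKT1 and 88.1 CPM in NKT2 cells of BM + Spl, and that of Ppargc1b was -1.64, on 6 UMIs in BM + Spl.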

How the data were processed

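Droplet single-cell libraries of sorted thymic cells were aligned by the authors to the mm10 transcriptome with Cell Ranger (3.0.2 in the C57BL/6 header, 7.0.0 in the BMT headers, where intronic reads are counted by default and the setting is not given in the sources used here). The deposited values are raw UMI counts per gene and called cell, with 31053 genes in C57BL/6 and 32285 in the BMT libraries. The labels also name Seurat 4.0.2, whose output was not used. Doublets were not called, and the only upper limit was that on genes per cell.

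From these counts cells were filtered and gated by raw marker UMIs, UMIs were summed per gene and gate, and CPM were computed over all genes with exact Poisson intervals and ratios with exact binomial intervals (Python 3.11.15, NumPy 2.4.6, SciPy 1.17.1, pandas 2.3.3, matplotlib 3.10.9). The scripts were tested on simulated data. Cells are not replicates, so no p-values were computed, and intervals cover counting error only. Members and lists were chosen with earlier results of these data known. Named members were the mitochondrial-encoded genes, the subunit of most UMIs per complex, the 3 largest and 3 smallest nuclear ratios per comparison, tissue isoforms with their partners and Uqcrq. Other members called in a comparison, and those with an interval on 1 side of 0 in each library, were named after their values were seen.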

Additional observations from a re-analysis of the deposited data

Results flagged for a closer look

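The cycling over NKT2 comparison gave different signs for the mitochondrial-encoded subunits of complex I: the summed log2 ratio was 0.0122281 in C57BL/6, -0.261173 in BM only and -0.239987 in BM + Spl. The difference between these ratios was not tested, since each library stands alone.

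The BM + Spl over BM only comparison gave different values between gates for the nuclear sums. Over all nuclear subunits the summed log2 ratio was 0.207683 in NKT1, 0.0192228 in NKT2 and -0.0231844 in cycling cells. For complex I it was 0.24405 in NKT1 and -0.0255826 in cycling cells, and for complex V 0.184116 in NKT1, 0.015475 in NKT2 and -0.0306403 in cycling cells. These sums have intervals on opposite sides of 0 in NKT1 and cycling cells, and the difference between gates was not tested. The share of Vβ cells with iNKT segments only was 29.7% in the NKT1 gate of BM + Spl and 68.0% in its cycling gate, and the part of this in the result was not tested.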

How the results depend on the processing

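No paired analysis was possible because each condition had 1 library. Results were recomputed under 10 alternatives, 9 planned and 1 with cells of 5000 to 10000 UMIs, which like the scaling to ribosomal protein genes was chosen after seeing the data. The restriction to iNKT segments was planned for BM + Spl over BM only and extended to the other comparisons after seeing the data. Of the counts of nuclear subunits called, 154 stayed within 1.5 times the reported count and 26 moved. Of the summed nuclear ratios 52 stayed inside the reported interval, 33 left it and 5 changed sign, and of the summed mitochondrial-encoded ratios 47 stayed and 43 left it with the same sign. The lower fold limit and the lower limit on UMIs for a measured gene do not enter a sum, so the ratios under these alternatives stayed by construction. The widest ranges of the summed mitochondrial-encoded ratios were -0.63 to -0.12 (cycling over NKT2, BM only), -0.62 to -0.22 (cycling cells, BM + Spl over BM only) and 0.24 to 0.52 (NKT2 over NKT1, BM only). With gates at 5 marker UMIs, 2 were higher in cycling over NKT2 cells in BM only and 2 in BM + Spl, and 1 in NKT1 cells of BM + Spl over BM only. For the thinned alternative the gates were drawn anew on the thinned counts, so they did not hold the same cells. The cycling gate then held 182 cells in C57BL/6, 67 in BM only and 117 in BM + Spl. Thinned to 2700 UMIs per cell, 12 were higher in NKT2 over NKT1 in C57BL/6 and 1 was lower in cycling over NKT2 in BM only. For BM + Spl over BM only, 1 was higher in NKT1 and 1 in cycling cells. With equal weight of cells, 1 was higher in NKT2 over NKT1 in BM + Spl, and 18 (BM only) and 7 (BM + Spl) in cycling over NKT2. Without the top 6% of cells by UMIs, 1 was higher in cycling over NKT2 in BM + Spl. At the lower fold limit, 45, 48 and 16 were higher in NKT2 over NKT1. In cycling over NKT2, 57, 36 and 34 were higher, with 2 lower in BM only and 2 in BM + Spl. In NKT1 cells of BM + Spl over BM only, 18 were higher. The shares of all genes given above are those at 1.5-fold and cannot be set beside these counts. At the lower limit no such share is given, so the counts do not show an enrichment. In cells with 5000 to 10000 UMIs, 0 (C57BL/6) and 4 (BM only) were higher in NKT2 over NKT1, 16 were higher in cycling over NKT2 in BM + Spl and 1 lower in BM only, and 4 were higher in cycling cells of BM + Spl over BM only. With iNKT segments only, 3 were higher in NKT2 over NKT1 in C57BL/6, from fewer cells. The cause of these moves was not tested, apart from the fold limit, where more genes pass by construction.

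Signs turned for 4 named genes and for some summed nuclear ratios. Each of the 4 was among the 3 largest or 3 smallest nuclear ratios of its comparison. Their reported log2 ratios were -0.17 for Ndufaf3, 0.38 for Ndufaf7, -0.27 for Atp5k and -0.19 for Ndufa3. Thinning gave log2 ratios of 0.23 for Ndufaf3 in cycling over NKT2 in C57BL/6 and, for BM + Spl over BM only, -0.14 for Ndufaf7 in NKT2 cells, and 0.036 for Atp5k, 0.064 for Ndufa3 and 0.046 for the summed nuclear subunits in cycling cells. Without the top 6% that sum was 0.018, from 263 cycling cells of BM + Spl and 85 of BM only. In cells with 5000 to 10000 UMIs it was 0.13, from 36 and 35 cycling cells. Thinning changed which cells the gates held, so these turns of sign are not those of the same cells at lower depth. The same window gave -0.0085 for the sum in NKT2 cells of BM + Spl over BM only and -1.98e-06 for NKT2 over NKT1 in BM + Spl.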
